A study of Homo sapiens with 6 samples.

Results

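The collagen genes are the human protein-coding genes named COL, a type number, A and a chain number, from COL1A1 to COL28A1. The rule used symbols only and no expression value, and it took 44 of the 57820 human gene rows of the table, silent rows included. Their RNA was compared between DKO1 cells (3 samples) and WT cells (3 samples). DKO1 is a derivative of HCT116 in which DNMT1 and DNMT3B, which encode DNA methyltransferases, are knocked out, and WT is HCT116 itself, a long-established line from a human colorectal cancer. Both were grown in serum-containing medium with no other treatment named. The study is about DNA methylation and higher-order genome architecture, and its RNA samples set the transcripts of the genotypes side by side. DKO1 is a single derived line, and what the knockouts do cannot be told apart from anything else in which it departs from HCT116. Nothing in the labels says that replicates are separate cultures. The p-values therefore cover the spread among these 6 samples, which may be technical.

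Collagens are proteins of 3 chains wound into a triple helix, with a glycine at regular intervals along each chain. Fibrillar collagens make the cables of connective tissue, type IV collagens the sheet of the basement membrane under epithelia, type VI the beaded filaments around cells, and fibril-associated collagens (FACITs) coat the cables, while a few collagens span the cell membrane. In the gut most fibrillar collagen is made by fibroblasts, and epithelial cells rest on a type IV sheet. The DNA methyltransferases methylate cytosine in CG dinucleotides, DNMT1 mainly after replication and DNMT3B mainly at sites without methylation.

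The promoters of 5 collagen genes show how much the CG content ahead of these genes differed. COL8A2, COL13A1 and COL17A1 were close to silent in WT and expressed in DKO1, and COL12A1 and COL4A5 were expressed in both. The lines give the bases before each start from RefSeq (build GRCh38.p14), 5′ to 3′ along the gene's strand, cut where an annotated exon begins, with each CG dinucleotide in capitals.
COL8A2 (GRCh38.p14 chr1:36125223-36125472, minus strand): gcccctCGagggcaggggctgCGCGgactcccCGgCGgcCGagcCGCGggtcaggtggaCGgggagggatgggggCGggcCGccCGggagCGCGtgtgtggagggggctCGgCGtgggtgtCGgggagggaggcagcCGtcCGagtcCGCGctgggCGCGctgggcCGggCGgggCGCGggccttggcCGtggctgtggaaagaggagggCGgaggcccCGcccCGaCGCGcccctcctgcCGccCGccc
COL13A1 (GRCh38.p14 chr10:69801656-69801866, plus strand): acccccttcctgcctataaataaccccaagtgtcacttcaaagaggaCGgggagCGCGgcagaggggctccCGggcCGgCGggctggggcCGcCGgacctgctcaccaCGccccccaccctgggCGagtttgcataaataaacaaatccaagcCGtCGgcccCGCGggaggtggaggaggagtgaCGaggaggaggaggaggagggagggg
COL17A1 (GRCh38.p14 chr10:104085958-104086130, minus strand): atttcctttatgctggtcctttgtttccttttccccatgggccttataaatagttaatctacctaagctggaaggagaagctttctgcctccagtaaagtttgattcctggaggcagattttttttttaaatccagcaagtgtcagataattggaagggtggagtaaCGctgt
COL12A1 (GRCh38.p14 chr6:75206054-75206303, minus strand): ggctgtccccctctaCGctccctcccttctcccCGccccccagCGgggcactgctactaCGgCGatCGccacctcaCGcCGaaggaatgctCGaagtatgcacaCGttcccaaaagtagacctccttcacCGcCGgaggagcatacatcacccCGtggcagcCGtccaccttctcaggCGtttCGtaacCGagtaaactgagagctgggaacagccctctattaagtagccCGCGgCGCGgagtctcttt
COL4A5 (GRCh38.p14 chrX:108439588-108439837, plus strand): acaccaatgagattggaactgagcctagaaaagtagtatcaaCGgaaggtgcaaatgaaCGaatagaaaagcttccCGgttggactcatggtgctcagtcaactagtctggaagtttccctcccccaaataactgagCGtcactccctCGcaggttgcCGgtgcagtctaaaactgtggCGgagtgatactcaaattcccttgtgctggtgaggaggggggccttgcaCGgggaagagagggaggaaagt
The stretch before COL8A2 held 35 CG dinucleotides in 250 bases, that before COL13A1 15 in 211 bases, and that before COL17A1 1 in 173 bases. COL12A1 had 21 and COL4A5 8, each in 250 bases.

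Levels are in TPM, a relative transcript abundance in which gene length is taken into account and each sample has an equal sum. Differences are DKO1 minus WT on the log2(TPM + 1) scale, with the standard error (SE), and this scale understates the change of low genes. Calls are limma calls with an adjusted p under 0.05, from a fit to the 13604 genes that reached 1 TPM in 3 or more samples (the filter). Sequencing depth is unknown, since TPM does not keep it. DNMT1 was at 31.07, 30.81 and 46.82 TPM in DKO1 and at 244.87, 249.97 and 231.01 TPM in WT, and DNMT3B averaged 4.42 ± 0.75 TPM in DKO1 and 7.36 ± 0.76 TPM in WT (SD, n = 3 each). Transcripts of both genes thus remained in DKO1 at a lower level (log2 differences -2.73 and -0.63, adjusted p = 3.59e-05 and 0.03), and DNMT3B lost its call once mitochondrial and spike-in rows were removed (0.065) and on leaving out WT replicate 1 (0.11), 2 (0.0908) or 3 (0.0778) or DKO1 replicate 1 (0.0535). Mitochondrial transcripts took 21.2% to 27.7% of the TPM in DKO1 samples and 19.7% to 20.1% in WT samples, which moves every other TPM value in the opposite direction. Of the epithelial markers EPCAM stood at 371.29 to 500.38 TPM in DKO1 and 457.29 to 536.37 TPM in WT, while the intestinal genes VIL1, CDH17 and LGALS4 stayed at or below 0.43 TPM in every sample of either line.

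Collagen transcripts were more abundant in DKO1. The 44 genes summed to 68.55, 72.57 and 87.16 TPM in DKO1 and to 27.43, 27.32 and 30.9 TPM in WT, and the groups did not overlap. In these whole-culture samples more cells with a transcript and more transcript per cell cannot be told apart. In DKO1 the 3 most abundant collagens were COL6A1, COL6A3 and COL9A3, which together held 45.1 ± 2.11% of the sum, against 23.4 ± 2.96% in WT (SD, n = 3 each). In WT the leading pair was COL12A1 and COL4A5, with 19.6 ± 4.0% of the sum in DKO1 and 54.0 ± 1.95% in WT. The mean was at least 1 TPM for 16 collagen genes in DKO1 and for 6 in WT, and it was below 0.1 TPM for 10 in DKO1 and for 25 in WT. The heatmap of all members shows these levels by class.

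**Figure D1:**
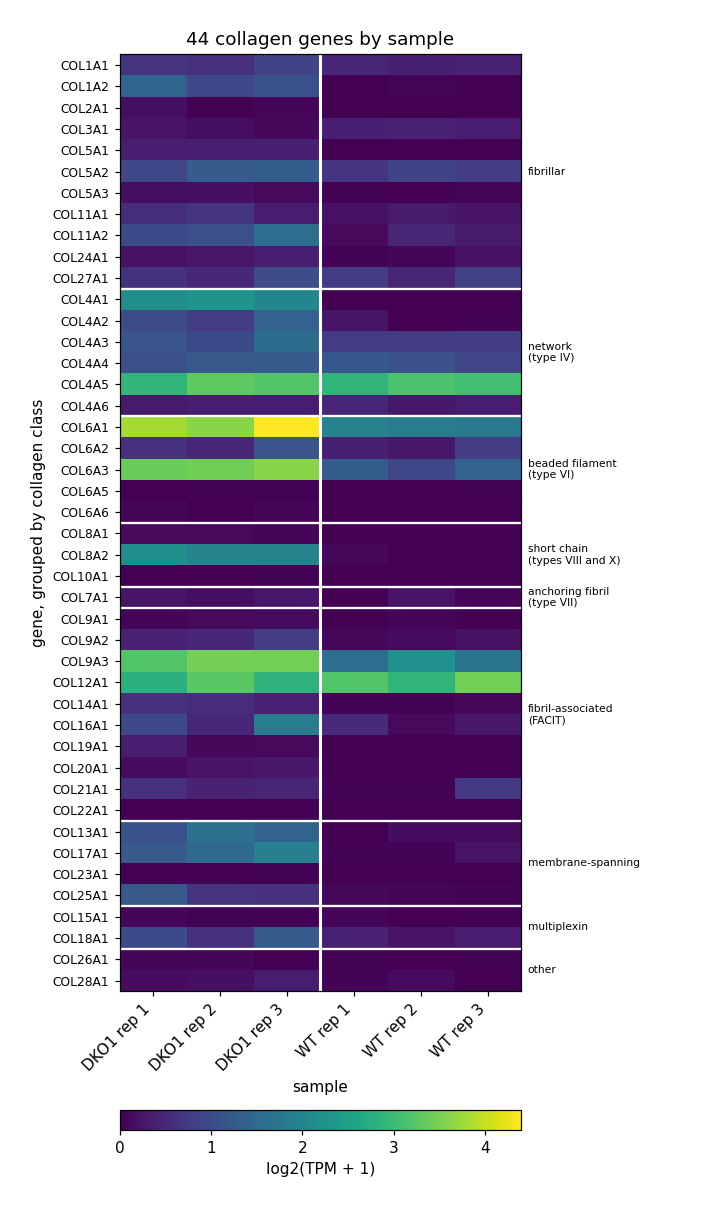
Levels of the 44 collagen genes as log2(TPM + 1) (colour) in 3 DKO1 samples (left of the white line) and 3 WT samples (right), with genes in rows by class. COL4A5 and COL12A1 are bright in every column, COL6A1, COL6A3 and COL9A3 are brighter in DKO1, and COL4A1 and COL8A2 are visible in DKO1 and dark in WT.

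Of the 44 genes 10 passed the filter on low values, and of these 7 rose in DKO1, 0 fell and 3 were not called. Among all 13604 tested genes 18.8% rose and 9.6% fell. COL4A1, COL8A2, COL13A1 and COL17A1 passed the filter only through their DKO1 values, so their difference was a condition of entering the test, and the count of 7 is no measure of the family. Every one of the 44 was above 0 in at least 1 sample and could be read from a fit without the filter, on 29487 genes. There 15 collagen genes rose (34.1%, against 14.9% of all genes) and 1 fell (against 3.72%). The median difference was 0.23 for the 44 and 0.06 for all 29487 genes. All 3 DKO1 values lay above all 3 WT values for 26 collagen genes (59.1%, against 26.0% of all genes and 31.0% of protein-coding genes above 0), and below them for 1, COL3A1 (9.28% of all genes). Counts without the filter rested in part on single samples, with 10 collagen genes higher without WT replicate 2, 11 without WT replicate 1 or WT replicate 3, 13 without DKO1 replicate 2 and 18 without DKO1 replicate 3. Quantile normalization without the filter called 11 higher and 3 lower (COL3A1, COL4A6 and COL15A1), and 17 members without a call changed sign under it.

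Type VI collagen had the highest summed level of the classes in DKO1, at 23.12, 21.66 and 32.64 TPM, against 4.69, 3.75 and 4.81 TPM in WT. COL6A1, the alpha 1 chain, was at 12.98, 11.31 and 20.05 TPM in DKO1 and at 2.92, 2.61 and 2.42 TPM in WT, 5.58-fold higher (log2 difference 2.08, SE 0.22, adjusted p = 0.000423). Its DKO1 replicate 3 stood above the other two, and all DKO1 values lay above all WT values. COL6A3, the longest chain of the trimer, was at 9.53, 9.92 and 11.29 TPM in DKO1 and at 1.47, 0.93 and 1.64 TPM in WT, 7.61-fold higher (log2 difference 2.27, SE 0.18, adjusted p = 9.25e-05). COL6A2, the alpha 2 chain that completes the classical trimer and the neighbour of COL6A1 on chromosome 21, was at 0.54, 0.40 and 1.24 TPM in DKO1 and at 0.30, 0.21 and 0.73 TPM in WT. Its groups overlapped and it did not pass the filter (adjusted p = 0.472 without the filter). The ratio of COL6A1 to COL6A3 TPM was 1.43 ± 0.32 in DKO1 and 2.09 ± 0.67 in WT, and that of COL6A1 to COL6A2 was 22.8 ± 6.14 in DKO1 and 8.49 ± 4.68 in WT (SD, n = 3 each). COL6A5 and COL6A6, which can take the place of the alpha 3 chain, stayed at or below 0.06 TPM in every sample.

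The 6 type IV genes lie in 3 head-to-head pairs, each pair transcribed outward from a shared start region. COL4A1, with COL4A2 the chain of nearly all basement membranes, was at 3.53, 3.84 and 3.04 TPM in DKO1 and at 0.01, 0 and 0.01 TPM in WT (log2 difference 2.15, SE 0.13, adjusted p = 3.42e-05). COL4A2, whose start lies 126 bases from that of COL4A1 in RefSeq, was at 1.04, 0.71 and 1.6 TPM in DKO1 and at 0.19, 0.01 and 0.03 TPM in WT. Both genes were thus near silent in WT and expressed in every DKO1 sample, although COL4A2 missed the filter. Without the filter COL4A2 rose (log2 difference 0.96, adjusted p = 0.0128), and that call was lost without DKO1 replicate 1 (0.0568), WT replicate 2 (0.0716) or WT replicate 3 (0.0783). COL4A1 TPM was 3.39, 5.41 and 1.90 times that of COL4A2 in the DKO1 samples. In the WT samples it was 0.0526, 0 and 0.333 times that of COL4A2, from values of at most 0.19 TPM.

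COL4A3 and COL4A4, chains of the kidney glomerular membrane, are separated by 418 bases between starts. COL4A3 was at 1.22, 0.98 and 1.94 TPM in DKO1 and at 0.70, 0.70 and 0.74 TPM in WT, with no overlap but an adjusted p of 0.158 without the filter. COL4A4 was at 1.11, 1.34 and 1.40 TPM in DKO1 and at 1.32, 1.12 and 0.90 TPM in WT and was not called (log2 difference 0.11, 95% confidence interval -0.22 to 0.45, adjusted p = 0.596). COL4A5, which pairs with COL4A3 and COL4A4 or with COL4A6, was at 6.42, 8.89 and 8.16 TPM in DKO1 and 6.38, 7.89 and 7.32 TPM in WT (log2 difference 0.10, 95% confidence interval -0.30 to 0.50, adjusted p = 0.704). COL4A6, whose nearest start lies 379 bases away, stayed at 0.24 to 0.29 TPM in DKO1 and 0.22 to 0.38 TPM in WT. The third pair thus held 1 expressed and 1 nearly silent gene in both lines, with COL4A5 at 29.6 ± 2.49 times COL4A6 in DKO1 and 26.9 ± 9.60 times in WT.

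**Figure D2:**
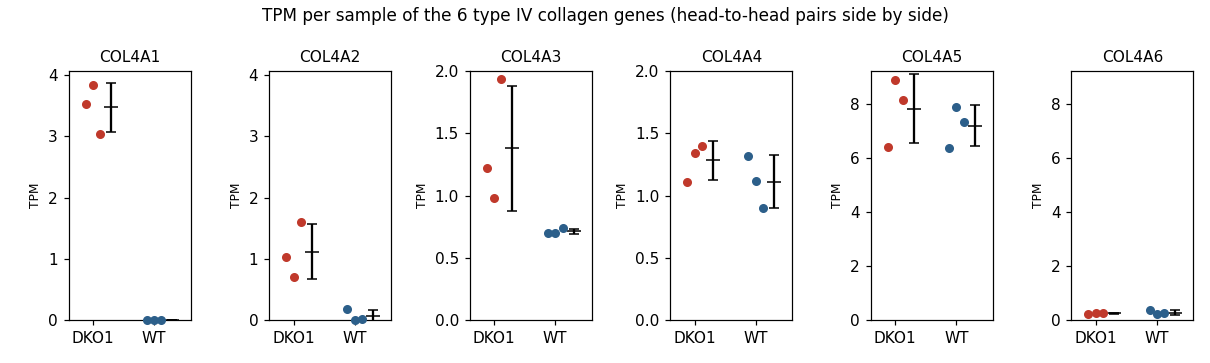
TPM (y axes, shared within a pair) of the 6 type IV collagen genes in 3 DKO1 samples (red) and 3 WT samples (blue), with the mean and SD beside the points. COL4A1 and COL4A2 stand apart between the lines, COL4A4 and COL4A5 overlap, and COL4A6 stays below 0.4 TPM in both.

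COL8A2 and the 4 membrane-spanning collagens were also near silent in WT, and 2 of these 4, COL13A1 and COL17A1, passed the filter. COL8A2, a short-chain collagen of the corneal basement membrane, was at 3.50, 2.89 and 2.92 TPM in DKO1 and at 0.07, 0.01 and 0.01 TPM in WT (log2 difference 1.99, SE 0.13, adjusted p = 4.47e-05). Its partner chain COL8A1 was at 0.08, 0.08 and 0.04 TPM in DKO1 and listed at 0 in WT. COL8A2 and COL4A1 were the collagens that had at least 1 TPM in all DKO1 samples and under 0.1 TPM in all WT samples (2 of 44, 4.55%), a pattern held by 1.36% of all genes above 0 and 1.61% of protein-coding ones. COL17A1, the hemidesmosome collagen that ties basal epithelial cells to the basement membrane, was at 1.33, 1.88 and 2.75 TPM in DKO1 and at 0.03, 0.03 and 0.18 TPM in WT (log2 difference 1.44, SE 0.19, adjusted p = 0.00131). COL13A1, a collagen of cell contacts and of the nerve-muscle synapse, was at 1.15, 2.10 and 1.64 TPM in DKO1 and at 0, 0.11 and 0.11 TPM in WT (log2 difference 1.28, SE 0.17, adjusted p = 0.00109). The COL13A1 call was lost under quantile normalization (log2 difference 0.55, adjusted p = 0.135). The differences of these low genes depend on the pseudocount, and with 0.1 in place of 1 they were 5.06 for COL4A1, 4.65 for COL8A2, 3.58 for COL17A1 and 3.36 for COL13A1. Quantile normalization gave 1.55, 1.35 and 0.73 for COL4A1, COL8A2 and COL17A1, which kept their calls. COL25A1, a membrane collagen of neurons, was at 1.33, 0.59 and 0.54 TPM in DKO1 and at 0.07, 0.05 and 0.03 TPM in WT, and COL23A1 reached at most 0.02 TPM.

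**Figure D3:**
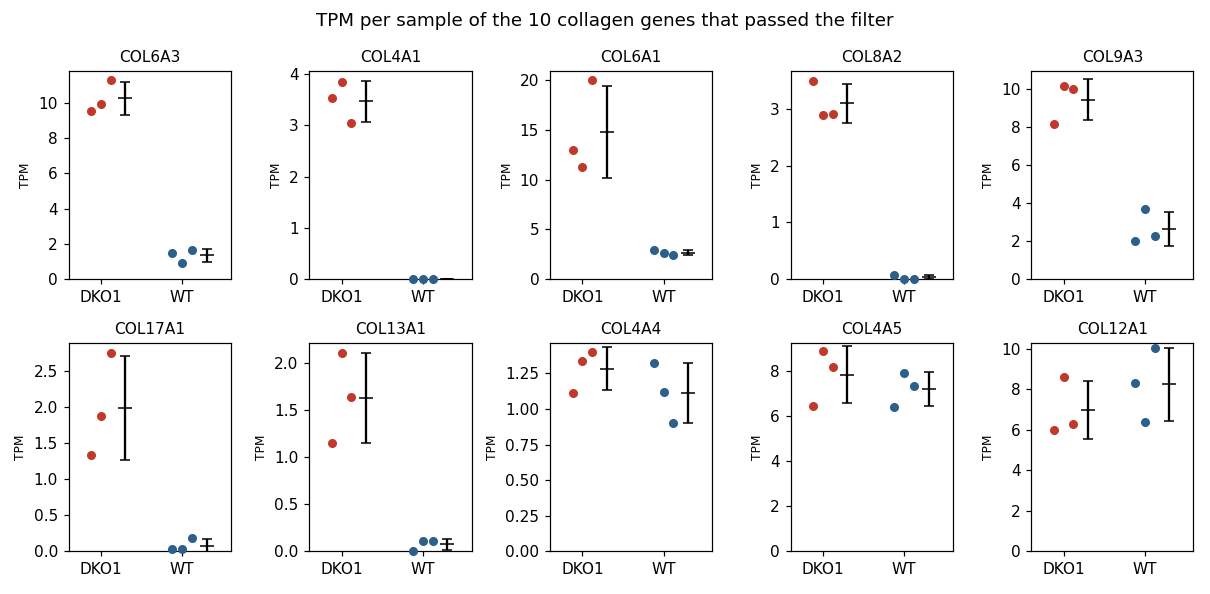
TPM per sample (points) of the 10 collagen genes that passed the filter, in DKO1 (red) and WT (blue), with the mean and SD beside them and a linear axis from 0 in each panel. In the first 7 panels every DKO1 point lies above every WT point, and in COL4A4, COL4A5 and COL12A1 the groups overlap.

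Among the FACITs, COL9A3 rose and COL12A1 was not called. COL9A3, a chain of the type IX collagen that coats type II fibrils in cartilage, was at 8.18, 10.14 and 9.97 TPM in DKO1 and at 2.00, 3.68 and 2.28 TPM in WT, 3.55-fold higher (log2 difference 1.54, SE 0.21, adjusted p = 0.00142). The other chains of the type IX trimer were low, with COL9A2 at 0.36 to 0.74 TPM in DKO1 and 0.07 to 0.14 TPM in WT, and COL9A1 at or below 0.09 TPM in every sample. The type II chain COL2A1 reached 0.13 TPM in DKO1 and 0.01 TPM in WT. COL12A1, which binds type I fibrils, was at 6.0, 8.62 and 6.27 TPM in DKO1 and at 8.32, 6.38 and 10.01 TPM in WT, and its groups overlapped (log2 difference -0.21, 95% confidence interval -0.70 to 0.28, adjusted p = 0.499). COL16A1, a minor fibril-associated chain, had a wide spread within DKO1, at 0.97, 0.42 and 2.61 TPM against 0.43, 0.08 and 0.23 TPM in WT. COL21A1 was at 0.54, 0.36 and 0.38 TPM in DKO1 and at 0.03, 0.03 and 0.68 TPM in WT, so its overlap rested on WT replicate 3, and without that sample and without the filter it was called (adjusted p = 0.0314). COL14A1, another fibril-coating chain, was at 0.32 to 0.55 TPM in DKO1 and 0.02 to 0.07 TPM in WT. COL19A1 and COL20A1 were listed at 0 in WT and lay between 0.07 and 0.28 TPM in DKO1. COL22A1 reached at most 0.01 TPM.

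None of the 11 fibrillar genes passed the filter. Together they summed to 6.08, 5.75 and 7.59 TPM in DKO1 and to 2.29, 2.64 and 2.74 TPM in WT. COL1A2, the alpha 2 chain of type I collagen, was at 1.66, 0.93 and 1.16 TPM in DKO1 and at 0, 0.05 and 0 TPM in WT, and it rose in the fit without the filter (log2 difference 1.13, adjusted p = 0.00284). Its partner COL1A1 was at 0.60, 0.53 and 0.84 TPM in DKO1 and at 0.38, 0.30 and 0.32 TPM in WT (adjusted p = 0.0889 without the filter). COL5A1, whose protein starts type I fibrils, was at 0.29, 0.30 and 0.31 TPM in DKO1 and at 0.01, 0 and 0 TPM in WT, a small difference with little spread (log2 difference 0.37, adjusted p = 0.00108 without the filter). COL11A2, of cartilage fibrils, was at 0.99, 1.11 and 2.00 TPM in DKO1 and at 0.08, 0.39 and 0.24 TPM in WT. COL3A1, the type III chain of skin and vessels, went the other way, at 0.17, 0.12 and 0.07 TPM in DKO1 and 0.30, 0.33 and 0.26 TPM in WT. It fell without the filter (log2 difference -0.21, adjusted p = 0.0396) and lost that call with the replicate block (0.0725), with a pseudocount of 0.1 (0.0858), with mitochondrial and spike-in rows removed (0.0636), and when DKO1 replicate 2 (0.0654) or WT replicate 1 (0.105), 2 (0.116) or 3 (0.0779) was left out. COL5A2, next to COL3A1 on chromosome 2, was at 0.92, 1.41 and 1.45 TPM in DKO1 and at 0.60, 0.86 and 0.73 TPM in WT, with no overlap but no call (adjusted p = 0.172 without the filter).

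The fit without the filter thus added 8 collagens to the 7 that rose with it, namely COL1A2, COL4A2, COL5A1, COL9A2, COL11A2, COL14A1, COL20A1 and COL25A1. COL1A2 and COL5A1 kept their calls in all 6 fits that leave out a sample and under all 3 other scalings, and COL14A1 lost its call under quantile normalization (adjusted p = 0.106). COL9A2, COL11A2, COL20A1 and COL25A1 each lost the call without DKO1 replicate 2 and without each WT replicate, with adjusted p from 0.0521 to 0.124 in those fits. Under quantile normalization COL9A2 (0.215), COL11A2 (0.0966) and COL25A1 (0.0999) lost it as well. COL18A1, a multiplexin of basement membranes, was at 0.99, 0.52 and 1.37 TPM in DKO1 and at 0.32, 0.18 and 0.26 TPM in WT and missed the threshold (adjusted p = 0.0578 without the filter), although it was called there without DKO1 replicate 2 (0.0163), under median-ratio scaling (0.0418), with a pseudocount of 0.1 (0.0449) and with the rescaling (0.0369). The other multiplexin, COL15A1, stayed at or below 0.05 TPM, and the anchoring fibril gene COL7A1 at or below 0.22 TPM. The remaining members COL5A3, COL10A1, COL11A1, COL24A1, COL26A1, COL27A1 and COL28A1 had means of 0.67 TPM or less in either line and no call in either fit. On the unfiltered table some uncalled members were called higher in single alternatives. These were COL5A3 (0.0407), COL11A1 (0.0206) and COL8A1 (0.0028) without DKO1 replicate 3, and COL8A1 with a pseudocount of 0.1 (0.0293). COL6A6 was called without DKO1 replicate 2 (0.0303) and COL19A1 without DKO1 replicate 1 (0.0076).

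CG content near the start was compared for the 32 members with a RefSeq window of 300 bases (250 before and 50 after a start). The other 12, among them COL6A1, COL9A3 and COL1A2, had no window. The motif counted was CG, which reads the same on both strands, and 96.0% of the 35116 windows of all genes held at least 1, with a median of 14 and quartiles of 4 and 28. At least 20 CG stood in 41.2% of all windows. Taking the richest window of each gene, 11 of the 17 members whose DKO1 values all lay above their WT values had at least 20 CG, and 7 of the other 15 did. Since 8 members had several windows, this choice raises the member counts, and they do not compare directly with the share of all single windows. COL4A1 and COL4A2, whose windows overlap, held 45 each and COL8A2 45, more than 96.5% of all windows. COL15A1 also held 45 and was silent in both lines, and COL12A1 held 29 and was expressed in both. COL6A3 held 4 CG and COL17A1 held 1, and both rose. The plot of CG count against expression difference shows members that rose at both ends of the axis. Methylation was not measured in these samples, and no match or absence of CG shows what a gene's methylation was.

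**Figure D4:**
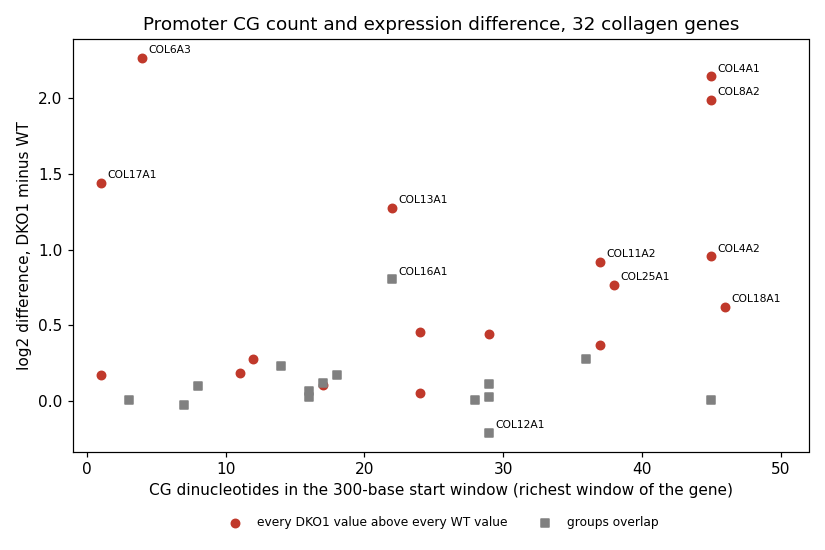
CG dinucleotides in the richest 300-base start window (x axis) against the log2 difference DKO1 minus WT (y axis) for 32 collagen genes, with circles where every DKO1 value lay above every WT value and squares where the groups overlapped. COL6A3 (4 CG) and COL4A1 (45 CG) are the highest points, at opposite ends of the x axis.

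Genes that make and export collagen rose at a share close to that of all tested genes. Of 27 genes for hydroxylation, folding, glycosylation and export of procollagen, 24 were tested, 5 rose (20.8%, against 18.8% of all tested genes), 1 fell and 18 were not called, a share near the background. Their median difference was 0.34, against 0.07 over all tested genes. CREB3L1, a transcription factor that activates collagen genes in bone, was at 3.77, 2.78 and 3.77 TPM in DKO1 and at 1.07, 1.54 and 1.26 TPM in WT (log2 difference 0.95, adjusted p = 0.00488). P3H2, a prolyl 3-hydroxylase acting on type IV collagen, was at 2.89, 3.42 and 3.82 TPM in DKO1 and at 0.93, 1.45 and 1.56 TPM in WT (log2 difference 0.93, adjusted p = 0.00676). Both calls were lost under quantile normalization (adjusted p = 0.0537 and 0.0895). The export coat subunit SEC13 rose (log2 difference 0.52, adjusted p = 0.0156) and its partner SEC23A fell (log2 difference -0.49, adjusted p = 0.0215). SEC13 lost its call without each WT replicate (0.0535 to 0.0833), and SEC23A without WT replicate 1 or 2 (0.0817 and 0.103) and under 2 scalings (0.0767 and 0.0651). The chaperone PDIA3 lost its call (adjusted p = 0.0386) in 8 of 14 alternatives. SERPINH1, the collagen-specific chaperone, was at 40.96, 26.67 and 37.67 TPM in DKO1 and at 26.86, 25.81 and 21.97 TPM in WT and was not called (adjusted p = 0.101). The prolyl 4-hydroxylase subunits P4HA1, P4HA2 and P4HB were not called either (adjusted p = 0.533, 0.0734 and 0.156). The count of 5 was 8 with the replicate block, 3 without DKO1 replicate 1, 11 without DKO1 replicate 2 and 2 without WT replicate 1, 2 or 3.

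Crosslinking and receptor genes rose in part. Of 18 crosslinking and processing genes 8 were tested, 4 rose (against 18.8% higher and 9.6% lower among all tested genes), 0 fell and 4 were not called. The median difference was 0.74 over those tested, against 0.07 over all tested genes. Of the 4 that rose, 3 (TGM2, LOXL4 and ADAMTS3) passed the filter only through DKO1, so the count and median are no measure of the list. LOXL2, a lysyl oxidase that crosslinks type IV collagen, was at 6.01, 5.14 and 4.64 TPM in DKO1 and at 1.13, 1.36 and 0.85 TPM in WT (log2 difference 1.57, adjusted p = 0.000403). TGM2, a transglutaminase that crosslinks matrix proteins, was at 5.85, 3.27 and 4.72 TPM in DKO1 and at 0.51, 0.19 and 0.11 TPM in WT (log2 difference 2.13, adjusted p = 0.000337). The others that rose were LOXL4 and ADAMTS3, which lost their calls under quantile normalization (adjusted p = 0.277 and 0.603), while LOX stayed at or below 0.09 TPM. Of 16 collagen receptor genes 7 were tested, 4 rose (57.1%, against 18.8% of all tested genes), 0 fell (against 9.6%) and 3 were not called, with a median of 0.80 against 0.07, and for ITGA1 the filter was passed only through DKO1. ITGA2, the collagen-binding integrin chain of epithelial cells, was at 21.4, 25.54 and 28.33 TPM in DKO1 and at 10.76, 11.25 and 8.81 TPM in WT (log2 difference 1.21, adjusted p = 0.00131). Its partner ITGB1 was at 151.03 to 224.87 TPM in DKO1 and 191.26 to 221.12 TPM in WT and was not called (adjusted p = 0.577). CD44 and ITGA3, which mainly bind hyaluronan and laminin, also rose (log2 differences 1.33 and 1.5, adjusted p = 6.89e-05 and 0.0179), and both are in the count of 4. ITGB8, on the same list, was lower without overlap, at 0.60 to 0.88 TPM in DKO1 and 1.08 to 1.79 TPM in WT, but was not called (adjusted p = 0.0728). ITGA3 lost its call in 3 fits that leave out DKO1 replicate 1 (0.0726), WT replicate 2 (0.0627) or WT replicate 3 (0.0674), and ITGA1, at 1.11 to 1.47 TPM in DKO1 and 0.26 to 0.32 TPM in WT, under quantile normalization (log2 difference 0.03, adjusted p = 0.942).

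Genes of collagen breakdown and of the basement membrane rose in part as well. Of 23 breakdown genes and inhibitors 12 were tested, 8 rose (against 18.8% of all tested genes), 0 fell (against 9.6%) and 4 were not called. The median was 1.25, against 0.07 over all tested genes. Of the 8 that rose, 5 passed the filter only through DKO1, namely MMP1, MMP3, MMP13, MMP16 and TIMP3. Their difference was thus a condition of entering the test, and the count and median are no measure of the list. The protease with the largest log2 difference was MMP16, a membrane-bound metalloproteinase of low abundance, at 3.74, 4.09 and 3.49 TPM in DKO1 and at 0, 0.02 and 0.01 TPM in WT (log2 difference 2.24, adjusted p = 2.52e-05). CTSB, a lysosomal protease, was at 141.69, 95.87 and 125.53 TPM in DKO1 and at 33.35, 28.19 and 29.92 TPM in WT (log2 difference 1.94, adjusted p = 0.000134). The inhibitors TIMP2 and TIMP3 rose as well (log2 differences 2.02 and 1.80, adjusted p = 0.000783 and 0.000163). So did the metalloproteinases MMP1, MMP3 and MMP13 (log2 differences 1.448, 1.492 and 1.055, adjusted p = 0.000172, 0.00108 and 0.000619). These passed the filter only through DKO1, with means of 2.58, 2.03 and 1.287 TPM there and 0.31, 0.057 and 0.1 TPM in WT. MMP14, a membrane collagenase, was not called (adjusted p = 0.671). Of 24 basement membrane partners 14 were tested, 8 rose (57.1%, against 18.8% of all tested genes), 0 fell (against 9.6%) and 6 were not called, with a median of 0.84 against 0.07. Among the 8 that rose, 2 (LAMA3 and NID1) passed the filter only through DKO1, so their difference was a condition of entering the test. LAMA3, a laminin chain of epithelial membranes, was at 7.67, 8.07 and 10.64 TPM in DKO1 and at 0.41, 0.58 and 0.68 TPM in WT (log2 difference 2.65, adjusted p = 4.35e-05). NID1, which links laminin to type IV collagen, was at 3.91, 4.04 and 2.28 TPM in DKO1 and at 0.07, 0.11 and 0.04 TPM in WT (log2 difference 2.01, adjusted p = 0.000254). LAMB3, the partner of LAMA3 in epithelial laminin, rose too (log2 difference 1.64, adjusted p = 0.00435), and ITGB4, the hemidesmosome integrin chain, was at 5.35, 1.84 and 5.42 TPM in DKO1 and at 1.34, 0.19 and 0.20 TPM in WT (adjusted p = 0.0164). Leaving out DKO1 replicate 1 (0.0676), WT replicate 2 (0.0585) or WT replicate 3 (0.0696) ended the ITGB4 call. The plot of log2 differences by list sets these genes beside the collagens.

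**Figure D5:**
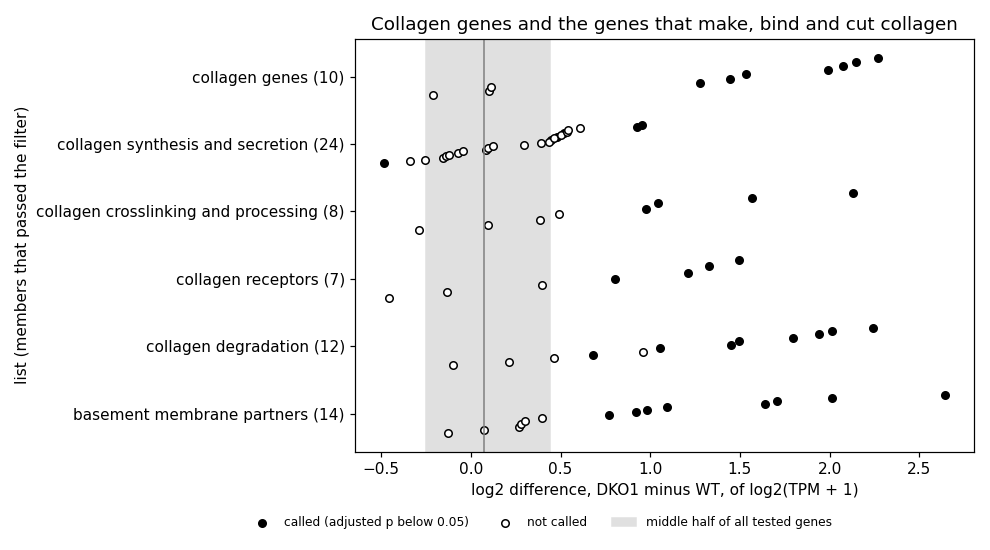
Log2 difference DKO1 minus WT (x axis) of each gene that passed the filter, by list (rows, number of genes in brackets), with filled points for genes called at an adjusted p below 0.05 and open points for the rest. The grey band runs over the middle of all tested genes, from -0.25 to 0.44 with the median line at 0.07, and most synthesis and secretion genes lie in or near it.

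Markers of other cell types were read beside these results. Of 16 fibroblast and mesenchymal markers 6 were tested, 2 rose and 0 fell, against 18.8% higher and 9.6% lower among all tested genes. Their summed level was 800.4 to 1016 TPM in DKO1 and 290.4 to 319.5 TPM in WT, most of it VIM at 725.05 to 897.67 TPM in DKO1 and 228.53 to 268.64 TPM in WT. The other marker that rose was CDH2, at 8.48 to 12.56 TPM in DKO1 and listed at 0 in WT, and it is among the 2 of the 6 tested markers that passed the filter only through DKO1. Without the filter 8 of the 16 rose and 1, MEOX1, fell, against 14.9% and 3.72% of all genes. TWIST1, a transcription factor of mesenchymal cells, was at 1.62, 1.61 and 0.66 TPM in DKO1 and at 0, 0 and 0.02 TPM in WT (adjusted p = 0.00973 without the filter). SPARC was at 56.36 to 94.02 TPM in DKO1 and 45.01 to 53.44 TPM in WT, with no overlap but no call (adjusted p = 0.0522). FBN1 was at 1.30 to 1.67 TPM in DKO1 and 0.77 to 0.94 TPM in WT, also without overlap or call (adjusted p = 0.05965). FN1 and TAGLN overlapped and were not called (adjusted p = 0.303 and 0.791). The listed genes DCN, LUM, PDGFRA, PDGFRB, THY1 and POSTN were at or below 0.66 TPM in every sample. Of these, POSTN, THY1, PDGFRA and DCN rose without the filter (adjusted p = 0.000909, 0.00521, 0.0143 and 0.0275), and LUM and PDGFRB were not called. Of 12 epithelial markers 8 were tested, 3 rose (37.5%, against 18.8% of all tested genes) and 0 fell (against 9.6%), with sums of 780.2 to 1022 TPM in DKO1 and 988 to 1240 TPM in WT. Those that rose were CDH1, CLDN4 and ESRP1 (log2 differences 1.45, 0.95 and 0.61, adjusted p = 0.000418, 0.00436 and 0.0221). CDH1 was at 9.56, 9.78 and 10.11 TPM in DKO1 and at 3.54, 2.75 and 2.63 TPM in WT. ESRP1 lost its call without WT replicate 2 (0.06) or 3 (0.0933). The keratin KRT8 was at 255.95, 142.33 and 258.21 TPM in DKO1 and at 488.37, 332.91 and 325.78 TPM in WT, with no overlap but no call (adjusted p = 0.0543). Its partner KRT18, at 98.76, 37.34 and 127.34 TPM in DKO1 and 209.19, 94.0 and 125.23 TPM in WT, overlapped (adjusted p = 0.255). Of 10 cartilage markers 1 was tested, SOX9, a transcription factor that drives cartilage collagens and is also expressed in gut epithelium, at 45.91, 51.80 and 30.72 TPM in DKO1 and at 11.65, 10.68 and 7.48 TPM in WT (log2 difference 1.99, adjusted p = 0.000721). Without the filter 4 of the 10 rose, namely SOX9, MATN3, ACAN and SOX5. MATN3, a cartilage matrix protein, was at 0.79, 1.09 and 0.69 TPM in DKO1 and at 0, 0 and 0.01 TPM in WT (adjusted p = 0.00198 without the filter). ACAN reached 0.23 TPM and SOX5 0.36 TPM in DKO1, and CHAD and EPYC were listed at 0 in all samples. The 9 endothelial and blood markers in the table summed to 1.41 to 1.83 TPM in DKO1 and 0.34 to 0.67 TPM in WT, and none passed the filter, while KDR and PTPRC rose without it (adjusted p = 0.024 and 0.00145). The part of any of these marker groups in the collagen differences was not tested.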

How the data were processed

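RNA from 3 DKO1 and 3 WT samples of HCT116 was sequenced from stranded messenger RNA libraries, per the labels' protocols. The authors deposited TPM per gene to 2 decimals. The submitters' processing notes name Trim Galore (0.4.0), FastQC, the aligner STAR (2.5.3a), the quantifier RSEM (1.2.21) and edgeR (3.12.1), and the builds hg19 and GRCh37. Which annotation release and strand setting served for counting is not given in the sources used here. Overlapping and antisense genes may share signal. A listed 0 may be a value lost to rounding. The table had 57897 rows, of which 57820 were human genes; the other 77 carry spike-in names and stayed out of every test. Ensembl identifiers gave symbols for 52338 human rows, and biotypes and chromosomes came from GENCODE 29 (GRCh38). Since the builds differ, the only coordinates given are those of RefSeq promoter sequence.

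Genotype was tested with limma (3.58.1, R 4.3.3) on log2(TPM + 1), with a trended variance and Benjamini-Hochberg adjustment across every gene in the fit, after a check on simulated data. Ratios of means are given where both reach 0.5 TPM. The members, lists and tests were chosen with earlier results of these data known. The rule for names took DNMT1, DNMT3B, all collagen genes and, from each other list, at most 4 called genes per direction by size of change; other list genes named were chosen after their values were seen. Alternatives changed the pseudocount (0.1), the filter (none, or a mean of 5 TPM), the scaling (median-ratio, quantile, or rescaling once mitochondrial and spike-in rows were removed), the variance trend and the replicate block, or left out each sample. Running these on the unfiltered table was decided after seeing the data. Deviations from the group means correlated between same-numbered samples (0.35, 0.572 and 0.267 for numbers 1, 2 and 3). The labels state no pairing, so the main fit held genotype only and its p-values ignore any pairing. Only the replicate block takes the numbers as pairs, and that pairing rests on this correlation alone. With the block 3053 of all tested genes were higher and 1817 lower, against 2558 and 1306 in the main fit.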

Additional observations from a re-analysis of the deposited data

How the results depend on the processing

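The 7 collagen genes called higher kept their direction and their calls in all alternatives in which they passed the filter, except COL13A1 under quantile normalization. The count of collagen genes higher was 7 in each fit that leaves out a sample, 15 without the filter, 3 above a mean of 5 TPM (fewer genes tested) and 11 with mitochondrial and spike-in rows removed, where 15 members passed, and the count lower was 1 without the filter. Over all tested genes 4400 were higher without the filter and 1145 above a mean of 5 TPM; leaving out a sample gave 1705 to 2842 higher and 524 to 2079 lower. On the unfiltered table, the collagens lower were 3 under quantile normalization, 0 with the replicate block, 0 with a pseudocount of 0.1, 0 with the rescaling and 0 to 1 when a sample was left out. With the replicate block 7 collagen genes rose and 0 fell, and the pairing changed no collagen call but that of COL3A1 on the unfiltered table; it moved the synthesis list to 8 higher. Synthesis genes higher numbered 3 above a mean of 5 TPM, 3 under median-ratio scaling, 3 under quantile normalization, 8 with the rescaling and 2 to 11 without a sample, and those lower 0 under quantile normalization and with the rescaling and 0 to 1 without a sample. Crosslinking genes higher were 0 above a mean of 5 TPM and 2 under quantile normalization, breakdown genes higher 3 above that mean, and basement membrane partners higher 14 without the filter and 4 above that mean. Quantile normalization called 1 receptor and 1 breakdown gene lower, and leaving out a sample gave 0 to 1 basement membrane partners lower. Uncalled COL4A4 and COL4A5 turned to -0.48 and -0.14 under quantile normalization, and 17 uncalled members of the unfiltered table turned sign under it (-0.37 to -0.0012), 1 of them called lower. Quantile normalization moved the median of all tested genes from 0.073 to -0.066 and the rescaling to 0.189; causes were not tested. Values near 0.1 TPM are limited by unknown depth.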

Other observations

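Rows with a collagen name that do not code for protein were outside the 44 genes. COL6A4P2, a pseudogene of a type VI chain on chromosome 3, was at 1.88, 2.90 and 2.19 TPM in DKO1 and listed at 0 in all WT samples (log2 difference 1.72, adjusted p = 0.000163), and it passed the filter only through DKO1. The other type VI pseudogene, COL6A4P1, was at 0.28 to 0.34 TPM in DKO1 and 0.09 to 0.43 TPM in WT. Of the 7 antisense, divergent or intergenic transcripts named after a collagen gene, COL4A2-AS1 reached 0.10 TPM and COL25A1-DT 0.02 TPM in DKO1 replicate 2, and the rest were listed at 0 in every sample, as was the pseudogene COL11A2P1.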
